A study of Mus musculus with 8 samples.

Results

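The proteasome is the protease that takes apart proteins marked with ubiquitin, and its subunits are made from a family of genes with the symbols Psma to Psmg. These genes were followed in liver RNA of mice whose hepatocytes lack Txnrd1, the cytosolic thioredoxin reductase. Members were all genes read by a probe set with a single gene symbol that starts with Psma, Psmb, Psmc, Psmd or Psme, or is Psmf1 or Psmg1 to Psmg4. This gave 49 of the 18193 genes measured, read by 103 of 45037 probe sets. Psmc3ip and Psme3ip1 matched by symbol but encode proteins that are not subunits, and the other 47 are subunits, activators, an inhibitor or assembly chaperones.

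Each of 8 arrays held the liver RNA of 1 young adult male mouse. The 4 txnrd1-/- livers (animals 69, 72, 73 and 81) carried txnrd1 cond/- and albCre1, that is 1 conditional and 1 null allele with Cre recombinase under the albumin promoter, which deletes the conditional allele in hepatocytes and leaves it intact in the other cells of the liver. The 4 txnrd1cond/+ livers (animals 70, 71, 80 and 82) carried txnrd1 cond/+ and albCre0. They shared the conditional allele but had a wild-type allele in place of the null allele, and no Cre. The loss of Txnrd1 in hepatocytes, the null allele in all other cells and the presence of Cre cannot be told apart. All mice had been housed alone for 10 days on 14 h of light and 10 h of dark and were not treated with any agent. In whole-liver RNA, fewer cells of a type and less RNA per cell cannot be told apart either.

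The particle has a hollow core made of stacked rings. The outer rings are alpha subunits (Psma), which gate the entrance, and the inner rings are beta subunits (Psmb), some of which carry the cutting sites. A regulatory particle caps the core: its base holds the ATPases that unfold and thread the substrate (Psmc) and large scaffold subunits, and its lid removes the ubiquitin. Interferon brings in the alternative beta subunits of the immunoproteasome, which is abundant in leukocytes. In mammalian cells a shortage of proteasome activity raises all subunit genes together through the transcription factor Nfe2l1 (Nrf1), and Nfe2l2 (Nrf2), the regulator of cytoprotective genes that is itself degraded by the proteasome, has been linked to some of them.

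The values are ratios. Each probe set was divided by about its median over the 8 livers, so a ratio of 1 is the middle of the livers, levels of different genes cannot be compared, and the presence of hepatocyte or leukocyte mRNAs could not be checked from their levels. A gene is the mean of its probe sets on the log2 scale. Differences are txnrd1-/- minus txnrd1cond/+ on the log2 scale, fitted with limma over all genes; the standard error (SE) and 95% interval come from that fit, and a call needed a Benjamini-Hochberg adjusted p of at most 0.05. The 3 Txnrd1 probe sets moved in opposite directions and none was called, so they did not check the genotype labels; log2 differences were 1.11, -0.71 and -0.41. Nqo1, a cytoprotective enzyme known as a target of Nfe2l2, had ratios of 1.57 to 2.72 in txnrd1-/- livers and 0.228 to 0.431 in txnrd1cond/+ livers.

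None of the 49 members, which include Psmc3ip and Psme3ip1, was called (lowest adjusted p = 0.767 in limma), where 0.0824% of all genes were. At a nominal (unadjusted) p of 0.05 or less, 2 members were higher in txnrd1-/- livers, the core subunit Psmb5 and the activator Psme1, and 0 were lower. Over all genes the same rule took 1.71% as higher and 0.605% as lower, 2.32% in all. The median log2 difference was 0.03 over the members and 0.00 over all genes, and 28 of the 49 had a value above 0 (57.1%, against 51.1% of all genes). No member differed by 1.5-fold, a size that 1.06% of all genes reached. The largest fitted difference was 1.34-fold.

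The intervals limit how large a difference in the measured ratio could have been missed. They cannot speak for a gene whose probe sets read little signal in liver, since the ratios do not keep the level. For 42 of the 49 members (85.7%) the 95% interval lay wholly within 1.5-fold in either direction, as it did for 82.5% of all genes. The exceptions were Psma8, Psmb3, Psmb5, Psmb9, Psmc6, Psmd5 and Psmd9. Livers of 1 genotype differed from each other with a median SD of 0.19 on the log2 scale over the members and 0.20 over all genes.

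**Figure D1:**
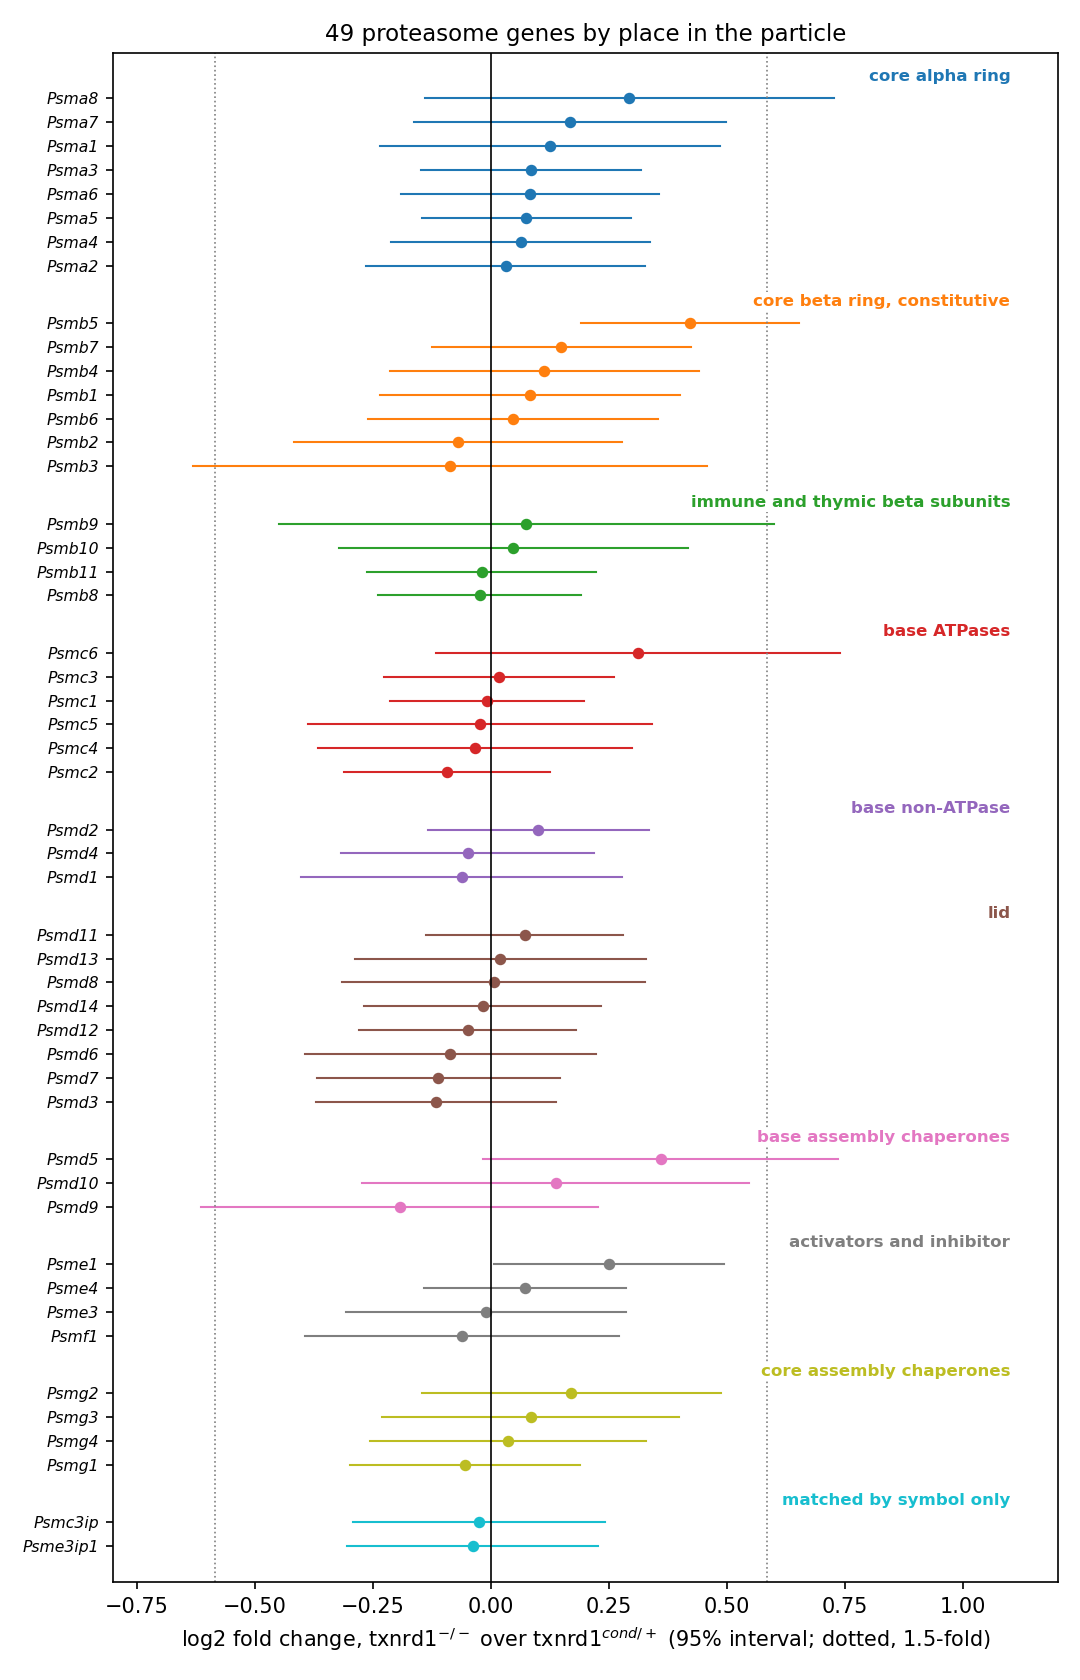
Fitted log2 fold change of each of the 49 genes, txnrd1-/- over txnrd1cond/+ (horizontal axis), grouped by place in the particle, with Psmc3ip and Psme3ip1 in a group of their own. Bars are 95% intervals from limma with 4 livers in each genotype, and dotted lines mark 1.5-fold. No point lies beyond a dotted line, and 7 intervals cross one. Those of Psmb5 and Psme1 exclude 0 before adjustment. All 8 alpha subunits have a value above 0, as 51.1% of all genes do, and the mean of these 8 overlaps between the genotypes.

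Psmb5, the beta subunit with the chymotrypsin-like cutting site, was the 1 member whose genotypes did not overlap. Its ratio was 1.04, 1.25, 1.12 and 1.19 in txnrd1-/- livers 69, 72, 73 and 81, against 0.940, 0.879, 0.827 and 0.789 in txnrd1cond/+ livers 70, 71, 80 and 82. Every txnrd1-/- liver stood above 1 and every txnrd1cond/+ liver below it. Over all genes, 1.13% were higher without overlap and 0.583% lower. The means were 1.15 ± 0.0897 in txnrd1-/- livers and 0.859 ± 0.0655 in txnrd1cond/+ livers (SD, n = 4 each). The log2 difference was 0.42 (SE 0.10, 95% interval 0.19 to 0.65, adjusted p = 0.767 in limma), and 55 of the 18193 genes had a p at or below its own. Since the genotypes did not overlap, any split that holds both of them must give the same direction, so only the sizes are given. The log2 difference was 0.32 among animals 69 to 73 (3 txnrd1-/- and 2 txnrd1cond/+ livers) and 0.56 among animals 80 to 82 (1 and 2 livers). On the sides of a split of the arrays by their hybridization control probe sets it was 0.29 and 0.55. Each of these sides held 2 livers of each genotype. A single probe set reads Psmb5, so no other probe set of the array bears on it.

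The other beta subunits with cutting sites had smaller values. Psmb6, the caspase-like subunit, had a log2 difference of 0.05 (SE 0.14) and Psmb7, the trypsin-like subunit, 0.15 (SE 0.12). Their ratios overlapped between the genotypes. The beta subunits without cutting sites ran from -0.09 for Psmb3 to 0.11 for Psmb4. Psmb3 was the member whose txnrd1cond/+ livers were farthest apart, at 0.660 in animal 80 and 1.67 in animal 82, and its interval ran from -0.63 to 0.46.

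The sequence before the start of Psmb5 is shown because this gene stood apart from the rest of the core. In RefSeq's GRCm38.p6 table the 250 bases before the transcript start lie at chr14:54617996-54618245 on the minus strand. Capitals mark a match to TGACNNNGC, the core letters of the antioxidant responsive element to which Nfe2l2 and Nfe2l1 bind with small Maf proteins.

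Psmb5: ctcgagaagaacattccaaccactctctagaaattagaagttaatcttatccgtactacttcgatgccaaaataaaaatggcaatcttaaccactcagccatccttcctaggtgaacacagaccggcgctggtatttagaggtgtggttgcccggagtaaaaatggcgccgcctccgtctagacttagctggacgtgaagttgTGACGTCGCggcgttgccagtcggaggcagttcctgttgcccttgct

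The match began 47 bases before the start. The same letters were searched on both strands in the 250 bases before each start that the table lists for 41 of the 49 members, 44 starts in all. Matches were found for 5 members, 1 each, which is 11.4% of the members' starts, against 10.2% of all 32851 starts in the table. A match is a description of letters. The stretches around the other matches are shown for comparison, 5′ to 3′ along the gene; those of Psmc6 and Psmd12 match on the opposite strand, so their capitals are the reverse complement of the motif.

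Psmb6: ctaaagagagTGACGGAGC
Psmd9: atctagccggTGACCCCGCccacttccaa
Psmc6: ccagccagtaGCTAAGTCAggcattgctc
Psmd12: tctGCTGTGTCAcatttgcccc

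These stretches lie at chr11:70525338-70525356 (Psmb6), chr5:123228149-123228177 (Psmd9), chr14:45329587-45329615 (Psmc6) and chr11:107479278-107479299 (Psmd12), all on the plus strand. The 5 members with a match had values on both sides of 0, and none was called. The log2 difference of Psmb5 was 0.42 (SE 0.10). Those of the others were 0.05 (SE 0.14) for Psmb6, -0.19 (SE 0.19) for Psmd9, 0.31 (SE 0.19) for Psmc6 and -0.05 (SE 0.10) for Psmd12. A link between the matches and these values was not tested.

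All 8 alpha subunits had values above 0, from 0.03 for Psma2 to 0.29 for Psma8, with a median log2 difference of 0.08. Over all genes 51.1% had a value above 0, and subunits measured in the same livers are not independent. The mean log2 ratio of the alpha subunits was 0.09, -0.09, 0.15 and 0.05 in txnrd1-/- livers 69, 72, 73 and 81. In txnrd1cond/+ livers 70, 71, 80 and 82 it was 0.07, 0.03, -0.13 and -0.23. The genotypes overlapped, and the lowest means were those of txnrd1cond/+ livers 80 and 82. None of the 8 subunits had a nominal p of 0.05 or less. Psma8 replaces Psma7 in the testis particle, so its single probe set may read little signal in liver, and the ratios do not keep the level. It had ratios of 1.23, 0.776, 1.56 and 1.17 in txnrd1-/- livers 69, 72, 73 and 81, against 0.948, 0.808, 1.02 and 0.990 in txnrd1cond/+ livers 70, 71, 80 and 82. Liver 72 was the lowest of all 8 and liver 73 the highest, and the 95% interval of the log2 difference ran from -0.14 to 0.73. The difference was 0.14 without animal 73 and 0.48 without animal 72, where Psma8 had a nominal p of 0.05 or less. Psma7 followed at 0.17 (SE 0.15) and Psma1 at 0.12 (SE 0.16).

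The core was described over its 15 genes, the alpha and the constitutive beta subunits together. Of these, 13 had a value above 0 and 2, Psmb2 and Psmb3, a value below 0, with a median of 0.08. Over all genes 51.1% had a value above 0. Subunits of 1 particle are measured in the same livers, so these 15 values are not independent of each other. The mean log2 ratio of the core was 0.05, -0.03, 0.09 and -0.01 in txnrd1-/- livers 69, 72, 73 and 81, against 0.04, 0.00, -0.19 and -0.17 in txnrd1cond/+ livers 70, 71, 80 and 82. The genotypes overlapped, and the lower mean of the txnrd1cond/+ group came from animals 80 and 82, in each of which 13 of 15 core genes had a ratio below 1. Among animals 69 to 73 the core differed between the genotypes by 0.02, and among animals 80 to 82 by 0.17. Without Psmb5, the highest of the 15, the mean log2 difference of the core was 0.08 over 14 genes, against 0.10 with it. The median was 0.08 either way, but leaving out 1 gene can move a median only a little.

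**Figure D2:**
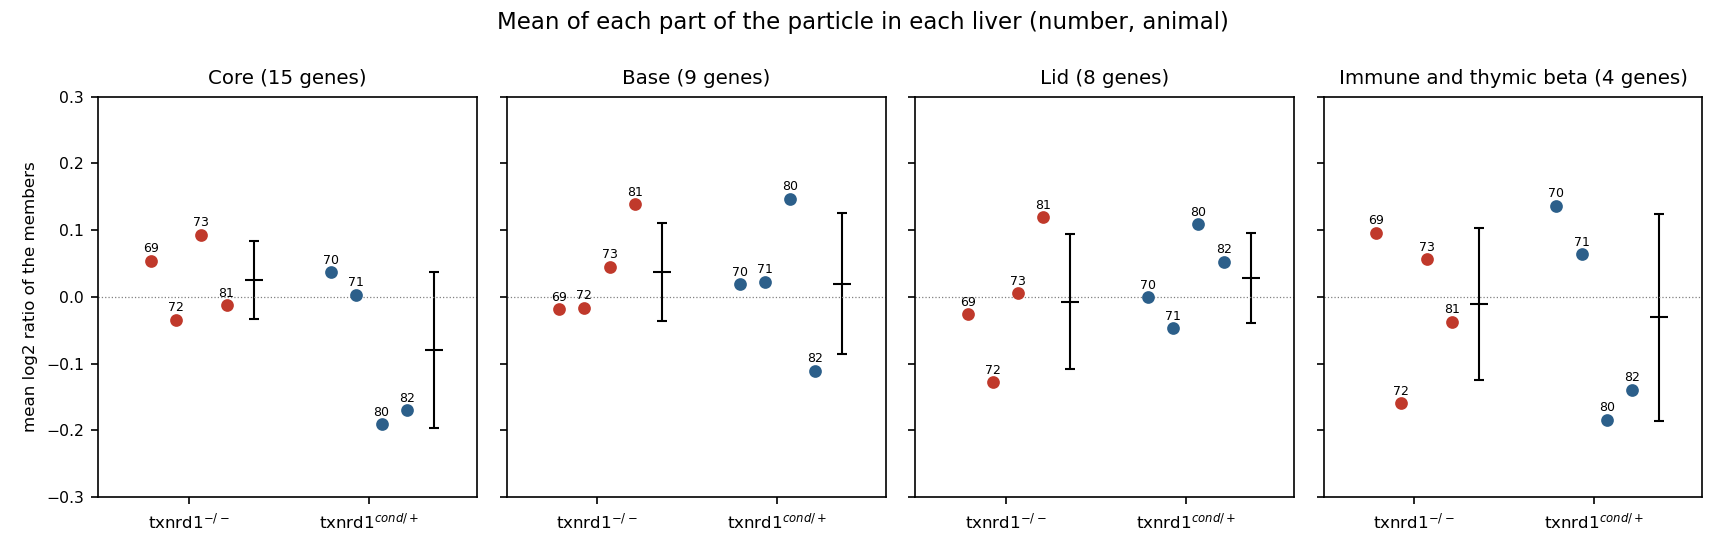
Mean log2 ratio of the members of the core, base, lid and immune beta subunits in each liver (points, labelled with the animal number), txnrd1-/- left of txnrd1cond/+; bars are mean ± SD over 4 livers. The genotypes overlap in all 4 panels, and the 2 lowest core values, -0.19 and -0.17, are those of txnrd1cond/+ animals 80 and 82.

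The base of the regulatory particle had values on both sides of 0. Over its 9 genes the median log2 difference was -0.02, with 3 values above 0 and 6 below. Of the 6 ATPases, Psmc6 stood apart at 0.31 (SE 0.19, 95% interval -0.12 to 0.74), while the other 5 lay between -0.09 and 0.02. Psmc6 had ratios of 1.07, 0.861, 1.24 and 1.56 in txnrd1-/- livers 69, 72, 73 and 81, against 1.18, 0.934, 0.872 and 0.784 in txnrd1cond/+ livers 70, 71, 80 and 82. The highest value belonged to liver 81 and the lowest txnrd1-/- value to liver 72, and the difference was 0.17 without animal 81, 0.45 without animal 72 and -0.00 among animals 69 to 73. Its 3 probe sets pointed the same way, with log2 differences of 0.30, 0.37 and 0.26. Psmc2 was the lowest ATPase at -0.09 (SE 0.10). The scaffold subunits were at -0.06 for Psmd1 and 0.10 for Psmd2, and the ubiquitin receptor Psmd4 was at -0.05.

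The lid had a median log2 difference of -0.03 over 8 genes, with 3 values above 0 and 5 below. The lowest were Psmd3 and Psmd7, structural subunits, at -0.12 (SE 0.11) and -0.11 (SE 0.12). Psmd3 had ratios of 0.898, 0.934, 1.02 and 1.09 in txnrd1-/- livers 69, 72, 73 and 81, against 0.970, 0.973, 1.18 and 1.16 in txnrd1cond/+ livers 70, 71, 80 and 82. In both genotypes the animals numbered in the eighties had the higher values. Psmd14, the lid's deubiquitinating enzyme, was at -0.02 (SE 0.11). Psmd11 was the highest lid gene at 0.07 (SE 0.09), averaged over 8 probe sets, the most of any member.

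The core and the lid were set against each other in each liver. Core mean minus lid mean was 0.08, 0.09, 0.09 and -0.13 in txnrd1-/- livers 69, 72, 73 and 81, against 0.04, 0.05, -0.30 and -0.22 in txnrd1cond/+ livers 70, 71, 80 and 82. The 5 animals numbered 69 to 73 were all above 0 and the 3 numbered 80 to 82 all below it, in both genotypes. The mean over txnrd1-/- livers was 0.03 ± 0.11 and that over txnrd1cond/+ livers -0.11 ± 0.18 (SD, n = 4 each, log2), and the genotypes overlapped. By range of animal numbers, the core averaged -0.12 in animals 80 to 82 and 0.03 in animals 69 to 73, and the lid 0.09 and -0.04. The lower range held 3 txnrd1-/- and 2 txnrd1cond/+ livers and the higher range 1 and 2. The labels do not say what the numbers stand for, and their part in the core's values was not tested.

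**Figure D3:**
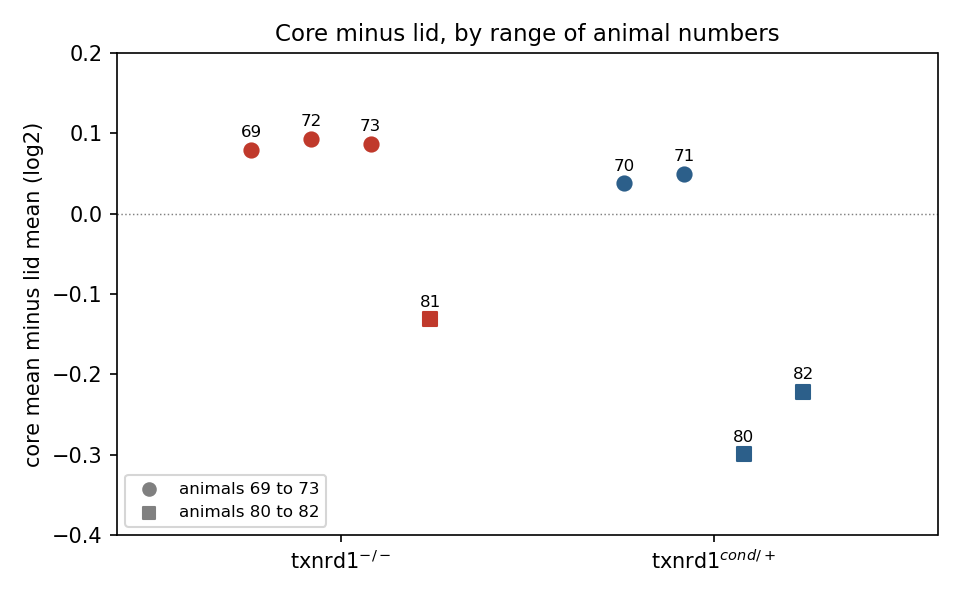
Core mean minus lid mean on the log2 scale in each liver (vertical axis; point labels are animal numbers), txnrd1-/- left of txnrd1cond/+; circles are animals 69 to 73 and squares animals 80 to 82. All circles lie above 0, between 0.04 and 0.09, and all squares below it, between -0.30 and -0.13.

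The subunits of the immunoproteasome and the thymic subunit differed between the genotypes by less than the spread of the livers. Psmb8, Psmb9 and Psmb10 take the places of Psmb5, Psmb6 and Psmb7 after interferon, and Psmb11 belongs to the thymus. Their log2 differences were -0.02 (SE 0.10), 0.08 (SE 0.23), 0.05 (SE 0.17) and -0.02 (SE 0.11), and none had a nominal p of 0.05 or less. The mean of the 2 Psmb8 probe sets was 0.965, 0.971, 0.940 and 1.05 in txnrd1-/- livers 69, 72, 73 and 81, against 1.09, 0.970, 0.912 and 1.02 in txnrd1cond/+ livers 70, 71, 80 and 82. Its interval, -0.24 to 0.19, lies within 1.5-fold. The 2 probe sets did not move together between livers: one read 1.06, 0.698, 1.02 and 1.10 in txnrd1-/- livers 69, 72, 73 and 81, and the other 0.880, 1.35, 0.862 and 0.994. In liver 72 they lay on opposite sides of 1, so the evenness of the mean is not that of either probe set. Psmb9 varied most, at 1.18, 0.769, 1.14 and 0.938 in txnrd1-/- livers, against 1.33, 1.07, 0.605 and 0.922 in txnrd1cond/+ livers in the same order of animals. Its interval, -0.45 to 0.60, reaches past 1.5-fold. Psmb10 ran from 0.769 to 1.15 in txnrd1-/- livers and from 0.735 to 1.08 in txnrd1cond/+ livers.

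Psme1, which with Psme2 forms the interferon-induced cap that opens the core without ATP, had the second lowest p of the members. Its ratio was 1.12, 0.984, 1.05 and 1.27 in txnrd1-/- livers 69, 72, 73 and 81, against 1.01, 0.921, 0.909 and 0.866 in txnrd1cond/+ livers 70, 71, 80 and 82. The genotypes overlapped through txnrd1-/- liver 72, which lay below txnrd1cond/+ liver 70. The log2 difference was 0.25 (SE 0.11, 95% interval 0.01 to 0.49). It was 0.12 among animals 69 to 73 and 0.51 among animals 80 to 82, and 0.18 without animal 81. Psme1 no longer had a nominal p of 0.05 or less when any 1 of animals 69, 71, 73, 80, 81 or 82 was left out, or among animals 69 to 73. The same held with the animal number range or the side of the hybridization controls as a covariate, with the probe set of largest variance for each gene, and without the genes of smallest SD. Psme2 has no probe set of its own. The probe set it shares with Psme2b, left out of the members because it carries 2 symbols, had a log2 difference of 0.05 (SE 0.12). Of the other activators, Psme3, a nuclear cap, was at -0.01 (SE 0.13) and Psme4, a single-chain cap, at 0.07 (SE 0.10). Psmf1, an inhibitor of the core, was at -0.06 (SE 0.15).

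Chaperones that build the particle included the members with the second highest and the lowest values. Psmd5, a chaperone of the base, had ratios of 1.14, 0.868, 1.15 and 1.45 in txnrd1-/- livers 69, 72, 73 and 81, against 0.932, 0.805, 1.06 and 0.768 in txnrd1cond/+ livers 70, 71, 80 and 82. Liver 81 was highest and liver 72 lay among the txnrd1cond/+ livers. The log2 difference was 0.36 (SE 0.17, 95% interval -0.02 to 0.73), 0.24 without animal 81 and 0.49 without animal 72. With the animal number range as a covariate it was 0.42 and Psmd5 had a nominal p of 0.05 or less, while Psme1 did not. Psmd9, also a chaperone of the base, had ratios of 1.16, 1.03, 0.961 and 0.719 in txnrd1-/- livers, against 1.27, 0.946, 1.36 and 0.865 in txnrd1cond/+ livers in the same order of animals. Its log2 difference was -0.19 (SE 0.19, 95% interval -0.61 to 0.23), and its 3 probe sets were all below 0. It ran from -0.30 without animal 82 to -0.06 without animal 81. The third chaperone of the base, Psmd10, was at 0.14 (SE 0.18). The chaperones of the core, Psmg1 to Psmg4, ran from -0.06 for Psmg1 to 0.17 for Psmg2.

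**Figure D4:**
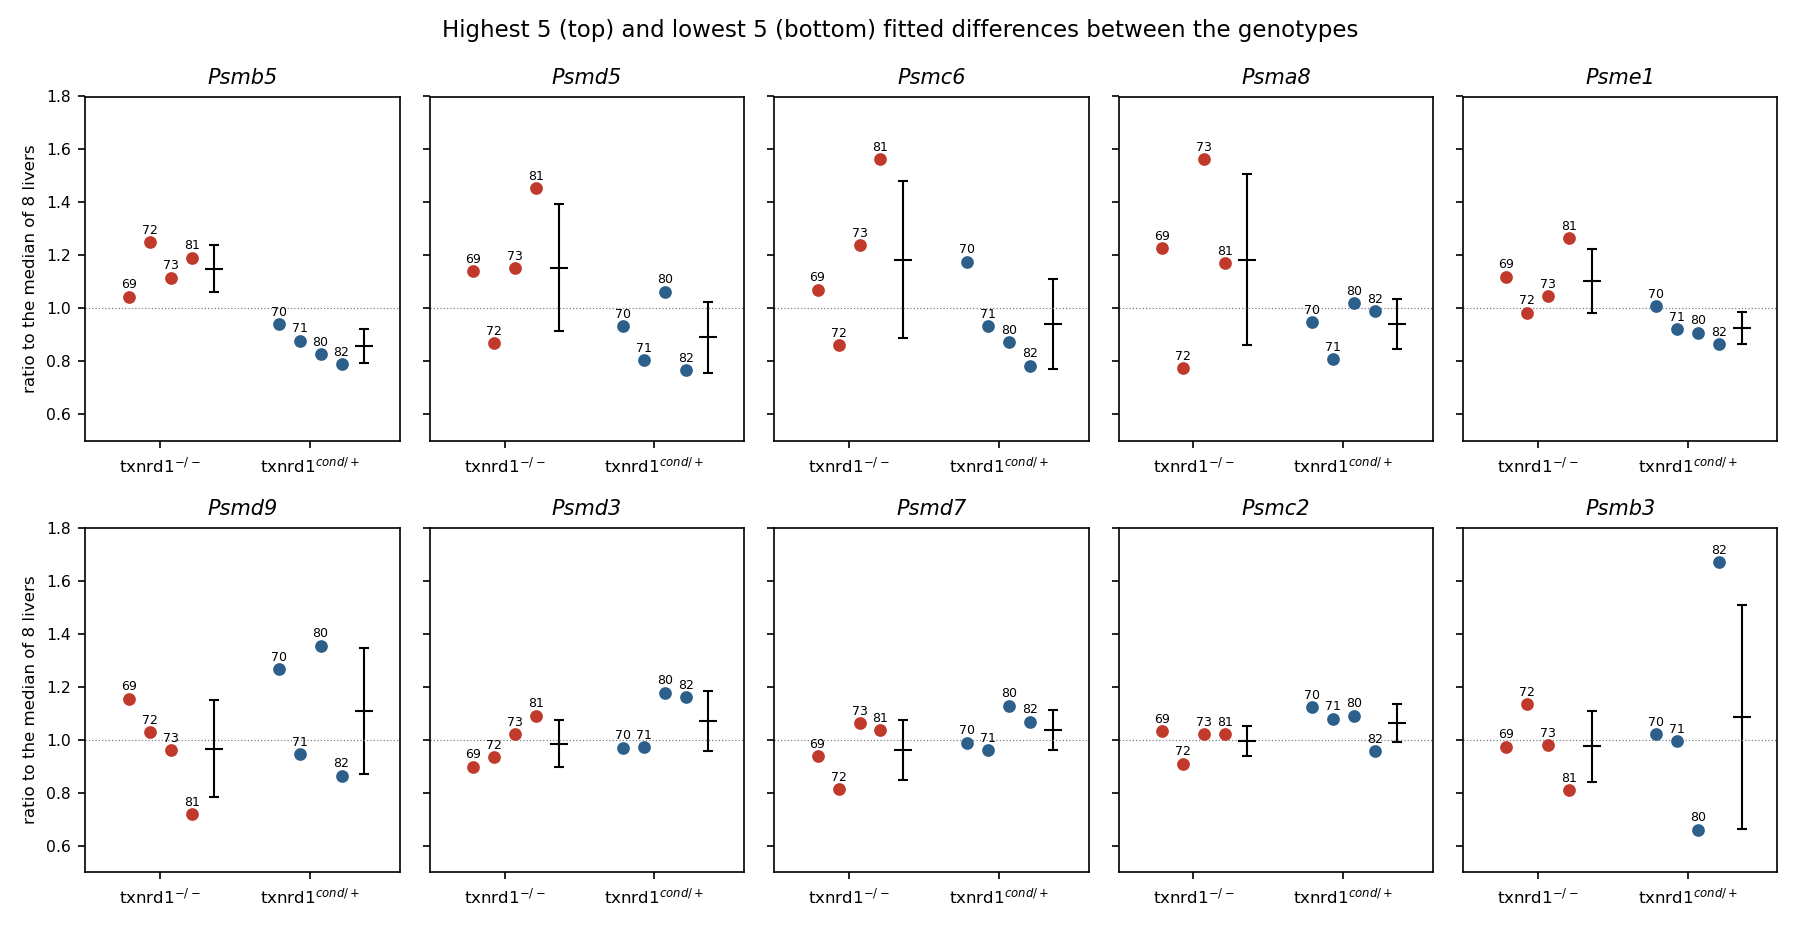
Ratio to the median of the 8 livers in each liver (vertical axis; point labels are animal numbers) for the 5 members with the highest fitted differences (top) and the 5 with the lowest (bottom), txnrd1-/- left of txnrd1cond/+; bars are mean ± SD over 4 livers. Psmb5 is the only panel in which the genotypes do not overlap, and liver 81 holds the highest ratio of Psmd5, Psmc6 and Psme1.

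Probe sets of 1 gene agreed only in part. Of the 27 members read by more than 1 probe set, 15 had probe sets with log2 differences of opposite sign. In none of these 15 did any probe set have a nominal p of 0.05 or less. Of all 103 probe sets, that of Psmb5 was the only one to reach it, where 1.82% of all probe sets did, and 56 had a value above 0.

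Proteins of the same pathway that carry other symbols were followed from lists. None of their genes was called. Over all genes, 51.1% had a value above 0, and 1.71% were higher and 0.605% lower at a nominal p of 0.05 or less. Of 10 measured proteasome proteins outside the Psm symbols, 8 had values above 0, 1 was higher at a nominal p of 0.05 or less and 0 were lower, with a median of 0.11. That gene was Ecpas, which encodes an adaptor that tethers core and regulatory particle, with ratios of 1.04, 0.913, 1.30 and 1.71 in txnrd1-/- livers 69, 72, 73 and 81, against 0.922, 0.891, 1.01 and 0.797 in txnrd1cond/+ livers 70, 71, 80 and 82. Its log2 difference was 0.42 (SE 0.18), and liver 81 was the highest again. It was 0.25 without animal 81, and 0.24 among animals 69 to 73 against 0.93 among animals 80 to 82. Its nominal p was above 0.05 when any 1 of animals 70, 71, 73, 81 or 82 was left out. The core chaperone Pomp was at 0.11 (SE 0.12).

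Of 13 measured genes for ubiquitin and its delivery, 9 had values above 0, against 51.1% of all genes. At a nominal p of 0.05 or less 1 was higher, against 1.71%, and 0 were lower, against 0.605%. That gene was Ngly1, the deglycosylase that activates Nfe2l1, with ratios of 1.22, 0.943, 1.06 and 1.47 in txnrd1-/- livers 69, 72, 73 and 81, against 1.05, 0.910, 0.830 and 0.590 in txnrd1cond/+ livers 70, 71, 80 and 82. The log2 difference was 0.48 (SE 0.19). It was 0.13 among animals 69 to 73 and 1.07 among animals 80 to 82, and 0.32 without animal 82. Its nominal p was above 0.05 when any 1 of animals 69, 80, 81 or 82 was left out.

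Measured genes for transcription factors that act on proteasome genes or their regulators numbered 7. At a nominal p of 0.05 or less, 0 were higher and 1, Nfe2l2, was lower, against 1.71% and 0.605% of all genes. Nfe2l2 had ratios of 0.917, 0.845, 0.754 and 1.12 in txnrd1-/- livers 69, 72, 73 and 81, against 1.33, 1.02, 1.05 and 1.22 in txnrd1cond/+ livers 70, 71, 80 and 82. The log2 difference was -0.35 (SE 0.14), with liver 81 within the range of the txnrd1cond/+ livers. It was -0.48 among animals 69 to 73 and -0.01 among animals 80 to 82 (1 txnrd1-/- and 2 txnrd1cond/+ livers). Its nominal p was above 0.05 when any 1 of animals 69, 70, 72, 73 or 82 was left out. Nfe2l1 was close to even, at 0.926, 1.05, 1.00 and 1.00 in txnrd1-/- livers, against 0.968, 1.05, 1.07 and 0.905 in txnrd1cond/+ livers in the same order. Its log2 difference was -0.00 (SE 0.10).

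The partners of the immune subunits and the interferon response were also read. Of 13 measured genes of antigen processing, which include Psmb8, Psmb9, Psmb10 and Psme1, Psme1 alone was higher at a nominal p of 0.05 or less and 0 were lower, with a median of 0.01. Over all genes 1.71% were higher and 0.605% lower at that p. The 17 measured interferon response genes had a median of 0.12, with 14 values above 0, against 51.1% of all genes. None of them had a nominal p of 0.05 or less in either direction, against 2.32% of all genes. Their mean log2 ratio was 0.19, -0.28, -0.01 and 0.28 in txnrd1-/- livers 69, 72, 73 and 81, against 0.08, 0.04, -0.62 and 0.00 in txnrd1cond/+ livers 70, 71, 80 and 82. Liver 81 was the highest of the 8 and livers 80 and 72 were the lowest. Psme1 was also highest in liver 81 but lowest in liver 82, at 0.866. Psmb9 was also lowest in livers 80 and 72 but highest in liver 70, at 1.33. Psmb8 was lowest in liver 80, at 0.912, but highest in liver 70, at 1.09. Psmb10 was highest in liver 69, at 1.15, and lowest in liver 82, at 0.735. The part of interferon in these values was not tested.

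Markers of other cells were set beside these values. None of 20 leukocyte markers measured, and none of 10 hepatocyte markers, had a nominal p of 0.05 or less, against 2.32% of all genes. Their median log2 differences were 0.03 and -0.09. Values were above 0 for 12 leukocyte and 3 hepatocyte markers, against 51.1% of all genes. Of the hepatocyte markers, Apoa1 alone was lower without overlap, against 0.583% of all genes. Its ratios were 0.966 to 0.992 in txnrd1-/- livers and 1.00 to 1.04 in txnrd1cond/+ livers (log2 difference -0.07, SE 0.08). The mean log2 ratio of the leukocyte markers ran from -0.10 to 0.16 in txnrd1-/- livers and from -0.14 to 0.31 in txnrd1cond/+ livers. That of the hepatocyte markers ran from -0.36 to 0.16 in txnrd1-/- livers and from -0.04 to 0.11 in txnrd1cond/+ livers, and the lowest, -0.36, was that of liver 81, the liver with the highest Psmd5, Psmc6, Psme1, Ecpas and Ngly1. Most of that low mean came from Ass1 and Tat, enzymes of amino acid metabolism, at ratios of 0.247 and 0.513 in liver 81. Cps1 and Apoc3 were also low there, at 0.778 and 0.821. Alb, Apoa1, Ttr, Pck1, Fgb and Hnf4a were between 0.964 and 1.08 in that liver. Without Ass1 and Tat the mean of liver 81 was -0.08. The part of these markers in those values was not tested. Psmb5 had a log2 difference of 0.40 without animal 81.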

How the data were processed

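Total liver RNA of 8 mice, 1 µg each, was amplified to biotinylated cRNA and measured on Affymetrix mouse arrays, 1 for each liver. The deposited values are linear ratios that the authors made: each array has a median of 0.997 to 0.999, and for 98.5% of probe sets the median ratio over the arrays lies within 0.02 of 1. GeneSpring is named in the methods and RMA in the submitters' processing notes; the version of RMA is not stated. Signals are not kept, so the study's signal minimum was not applied. Of 45101 probe sets, 64 controls were left out; 34945 carry 1 symbol, 932 several and 9160 none. Symbols were updated through RefSeq (GRCm38.p6), which changed 0 members. Promoters came from the RefSeq table, which has no entry for 8 members. 5 empty values stayed empty, 0 of them in members.

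Log2 ratios, averaged per gene, were compared with limma 3.58.1 (lmFit, eBayes, 2-sided) in R 4.3.3; means ± SD are of linear ratios unless said to be log2. Arrays have no depth, and their number limits the precision: in simulated data limma called 0, 16, 38 and 48 of 50 genes changed 1.25-, 1.5-, 2- and 4-fold, with 4 false calls, over 18193 genes. Animals are the replicates. Named genes are the immune and thymic beta subunits, the activators, members whose genotypes do not overlap, the 5 highest and 5 lowest, and list genes at a nominal p of 0.05 or less; others named show a subgroup's range or role and were chosen after their values were seen. The members and lists were chosen with earlier results of these data known. Alternatives were 2 scalings, 3 ways to read a gene, 2 fits, the animal number range as a covariate, a filter on SD and leaving out each animal; the side of the hybridization controls and animals 69 to 73 alone were added after seeing the data. The code was tested on simulated data.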

Additional observations from a re-analysis of the deposited data

Results flagged for a closer look

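Among 4 livers of a genotype, 6 of 108 sets of values had 1 liver far from the other 3, by a gap that chance gives in about 1 of 20 sets. Liver 72 accounts for 4 of them, all in txnrd1-/- livers: Psmf1 had a ratio of 0.732 (the others 1.01 to 1.03), Psmc2 0.910 (the others 1.02 to 1.03), Psmd12 0.943 (the others 0.994 to 0.999) and Psmb11 1.12 (the others 0.989 to 0.993). Psmb6 had a ratio of 0.752 in txnrd1-/- liver 81 (the others 0.999 to 1.04). Psmb2 had a ratio of 0.735 in txnrd1cond/+ liver 82 (the others 1.03 to 1.09).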

How the results depend on the processing

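No member was called in any of the 19 alternatives, and none was lower at a nominal p of 0.05 or less. The number higher at that p was 2 in the main analysis, where 1.71% of all genes were. The share of all genes is given in brackets for each alternative that changed it. It was 3 (1.86%) with quantile normalization, for Psmb5, Psmd5 and Psme1. The probe set of largest variance gave 1 (1.39%). Leaving out probe sets ending in _s_at, _x_at or _a_at, which drops Psmb5, gave 1 (1.62%). The side of the hybridization controls as a covariate gave 1 (2.06%). Leaving out the 25% of genes with the smallest SD gave 1 (1.88%). The robust fit gave 4 (3.35%) and array weights 4 (2.47%). Among animals 69 to 73, where 5 livers were fitted, the number was 0 (1.25%). Leaving out 1 animal at a time gave 1 to 5. The 5 (Psma8, Psmb5, Psmc6, Psmd5 and Psme1) were without animal 72 (3.09%). Psmb5 kept a nominal p of 0.05 or less in every alternative that measures it except animals 69 to 73. With the number range as a covariate the count stayed at 2, but the genes were Psmb5 and Psmd5 in place of Psmb5 and Psme1. The median over the members ran from -0.03 to 0.04 across settings and from -0.01 to 0.07 leaving out animals. The core median was -0.0222 among animals 69 to 73 and 0.05 to 0.13 leaving out animals; medians of the lid, base and immune subunits crossed 0. No paired analysis was possible because the genotypes share no animal number. The cause of these changes was not tested.

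None of the members whose value changed sign was called. Among animals 69 to 73 they were -0.23 for Psmb9, -0.0354 for Psmb10, -0.0406 for Psme4, 0.0596 for Psmf1, -0.00468 for Psmc6 and 0.0273 for Psmb3. With the number range as a covariate they were -0.0333 for Psmb9, 0.00346 for Psme3 and 0.00603 for Psmf1. Psme3 was 0.0797 with the probe set of largest variance, and Psmf1 0.0404 with array weights. Leaving out animals, Psmb8 ran from -0.0667 to 0.0182, Psmb9 from -0.14 to 0.24, Psmb10 from -0.0729 to 0.16, Psmb11 from -0.0672 to 0.0524, Psme3 from -0.11 to 0.0502, Psmf1 from -0.14 to 0.0566 and Psmb3 from -0.30 to 0.14.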
